A study of Homo sapiens with 12 samples.

Results

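The 10 transcription factor genes described here are GATA1, GATA2, TAL1, KLF1, NFE2, LMO2, LYL1, GFI1B, MYB and RUNX1, chosen by name as factors that set the erythroid and stem cell programmes. They are 10 of the 61782 gene rows in the tables, each has a row of its own that is not joined with another gene, and all 10 were at or above 1 FPKM in every group. FPKM counts fragments per kilobase of transcript, relative to the mapped fragments of a library. The data were collected to find the mRNAs that Argonaute 2 (AGO2), the effector protein of microRNAs, carries when miR-143 is present. K562, a human erythroleukemia cell line, was used as a line with an inducible C/EBPα (K562-C/EBPα-ER) per the study's methods, and no induction is named in the labels. All cells carried a lentiviral vector, either pLV-miR-143 or pLV-control, and the precipitates were made with AGO2 antibody (AGO) or, as a mock, with immunoglobulin of no specificity (IgG). The 12 samples form 4 groups of 3, named control_IgG, control_AGO, miR143_IgG and miR143_AGO.

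The values analysed are the authors' averages, 1 per gene and group, so that no value below has a replicate spread, a test or a p-value. A level is an FPKM, and a difference is log2 of (FPKM + 1) over (FPKM + 1), which understates the change of low genes. Since RNA was taken from whole cell populations, fewer cells with a transcript and less of it per cell cannot be told apart. In the mock precipitates 7.08% (control_IgG) and 7.57% (miR143_IgG) of all FPKM lay in protein-coding rows, against 40.1% and 35.4% in control_AGO and miR143_AGO. The low edge of a group (the 10th lowest product of FPKM and transcript length), which falls as depth rises, was, relative to miR143_AGO, 13.5-fold in control_IgG, 1.64-fold in miR143_IgG and 1.09-fold in control_AGO. The row of MIR143 was listed at 0 in both groups with the control vector and at 44781 (IgG) and 118393 FPKM (AGO) in the groups with the miR-143 vector, as the labels state.

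GATA1 and GATA2 are zinc finger proteins that bind the same short DNA motif, and red cell precursors pass from GATA2 to GATA1 as they mature. TAL1 and LYL1 are closely related basic helix-loop-helix factors that pair with an E protein and, through LMO2, join GATA factors on DNA. KLF1 and NFE2 drive globin and other red cell genes, GFI1B is a repressor of the erythroid and megakaryocyte lineages, and MYB and RUNX1 act from the stem cell onwards.

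The sequences of 5 microRNAs are shown because their seeds (bases 2 to 8, in capitals) were searched in the 3′ UTRs of the factors. miR-143-3p is the microRNA of the vector. The others were chosen as known regulators of a factor, miR-15a of MYB, miR-17 and miR-27a of RUNX1, and miR-223 of LMO2. miR-150-5p, also planned for MYB, was not in the reference used and was not searched. The sequences are from RefSeq (GRCh38.p14), 5′ to 3′, and the mature microRNAs themselves were not measured here.
hsa-miR-143-3p: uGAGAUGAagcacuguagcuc
hsa-miR-15a-5p: uAGCAGCAcauaaugguuugug
hsa-miR-17-5p: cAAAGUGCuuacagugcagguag
hsa-miR-27a-3p: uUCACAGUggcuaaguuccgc
hsa-miR-223-3p: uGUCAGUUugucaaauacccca

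No seed match for miR-143-3p was found in the longest 3′ UTR of any of the 10 factors, against 24.9% of 6837 coding genes that had one. A match means the complement of bases 2 to 8 (7mer-m8), of bases 2 to 7 followed by A (7mer-A1), or both together (8mer), in transcripts of GENCODE 29. The 3′ UTRs of the factors ran from 144 bases in GATA1 to 4334 in RUNX1, and 6 of them (GATA1, KLF1, NFE2, LMO2, LYL1 and GFI1B) had fewer bases than the median of 1353 over the genes. A short 3′ UTR holds fewer matches of any seed, and the part of length in the count was not tested.

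For the other seeds, 5 factors held at least 1 match and 5 held none. MYB and RUNX1 matched miR-15a-5p (30.2% of genes did), TAL1, LMO2 and RUNX1 matched miR-17-5p (31.5%), GATA2 and RUNX1 matched miR-27a-3p (29.9%), and LMO2 matched miR-223-3p (16.7%). GATA1, KLF1, NFE2, LYL1 and GFI1B had no match for any of the 5 seeds. The matches in MYB for miR-15a-5p, in RUNX1 for miR-17-5p and miR-27a-3p, and in LMO2 for miR-223-3p are in the genes these microRNAs were chosen for. For those matches the shares of genes are therefore no fair measure. All are matches of letters and no evidence that a site is used. The 5 8mers of the factors are shown with their surroundings, in the sense of the mRNA, with the matched bases in capitals. They lie in the 3′ UTR of LMO2 at chr11:33859104-33859111 (minus strand), of GATA2 at chr3:128480857-128480864 (minus), of RUNX1 at chr21:34791807-34791814 (minus) and of MYB at chr6:135218634-135218641 and chr6:135218661-135218668 (plus), all in GRCh38.
LMO2, miR-223-3p: ccatccatagtAACTGACAtgattagcaga
GATA2, miR-27a-3p: tgccagcagttACTGTGAAtgttccccacc
RUNX1, miR-27a-3p: cccggagggaaACTGTGAAtgcttctgatt
MYB, miR-15a-5p, first: aaaacgtttttTGCTGCTAtggtcttagcc
MYB, miR-15a-5p, second: gcctgtagacaTGCTGCTAgtatcagaggg

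The GATA2 match starts 155 bases after the stop codon, the LMO2 match 245 and the RUNX1 match 321, while the MYB pair starts at 974 and 1001. Each of the first 3 was also in the shortest annotated 3′ UTR of its gene, whereas neither MYB match was in the shortest of MYB (58 bases). 3′ UTRs of lengths in between were not searched.

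**Figure D1:**
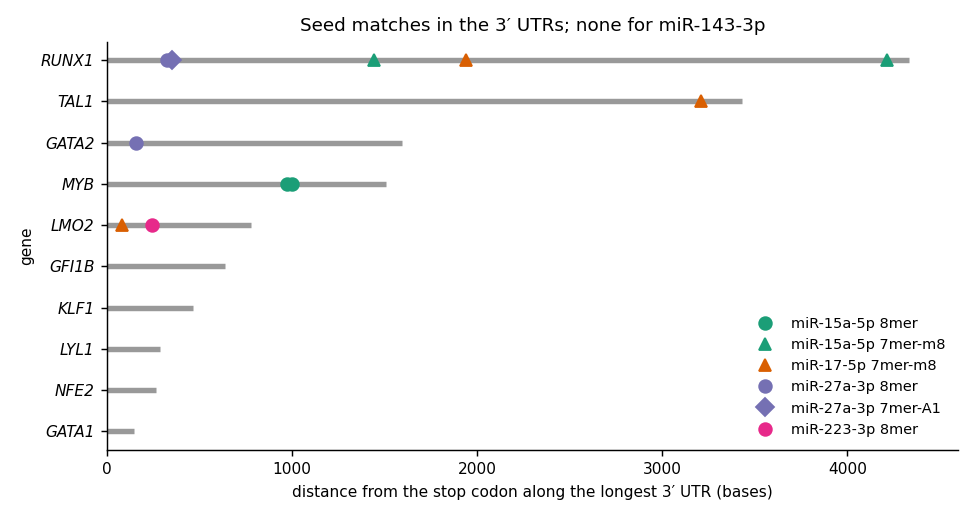
Seed matches in the longest annotated 3′ UTR of each of the 10 genes: grey lines give the 3′ UTR from the stop codon, in bases, colours the microRNA and symbols the type of match. RUNX1, for which miR-17 and miR-27a were chosen, has the most matches (5), 5 genes have none, and no gene has one for miR-143-3p.

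KLF1, the erythroid Krüppel-like factor, was the most abundant of the 10 in both AGO precipitates. Its mRNA (chr19:12884422-12887199, minus strand, 1 annotated transcript) stood at 41.9 FPKM with IgG and 281 with AGO in control cells, against 42.8 and 289 in miR-143 cells. It ranked 63rd of 8380 coding rows in control_AGO and 53rd of 8781 in miR143_AGO, against 788th and 718th in the mock precipitates. The AGO value was 6.70 times the IgG value with the control vector and 6.75 times with miR-143, so that the ratio was nearly the same in both cell populations.

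GATA2, the GATA factor of stem and progenitor cells (chr3:128479427-128493185, minus strand), was listed at 20.8 FPKM with IgG and 158 with AGO in control cells, against 10.4 and 85.3 in miR-143 cells. Both precipitates of the miR-143 cells were lower than those of the control cells, and the AGO value exceeded the IgG value 7.61-fold with the control vector and 8.19-fold with miR-143. GATA1, the GATA factor of maturing red cells (chrX:48786554-48794311, plus strand), stood at 55.3 FPKM with IgG and 73.2 with AGO in control cells, against 52.0 and 62.3 in miR-143 cells. GATA1 thus varied least of all 10 between groups, while its relative varied over more than 10-fold. In both mock precipitates GATA1 was above GATA2, and in both AGO precipitates GATA2 was above GATA1.

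TAL1, which anchors the complex on DNA (chr1:47216290-47232220, minus strand), was the least abundant of the 10 in miR143_IgG. It was listed at 6.84 FPKM with IgG and 30.1 with AGO in control cells, against 4.99 and 18.6 in miR-143 cells, with an AGO value 4.40 and 3.72 times the IgG value. LYL1, its close relative (chr19:13099033-13103161, minus strand), was the first of the 10 in control_IgG at 92.0 FPKM, was at 62.1 in control_AGO, and had nearly equal values in miR-143 cells (52.0 with IgG and 52.9 with AGO). The pair therefore parted: TAL1 was higher with the AGO2 antibody in both populations, and LYL1 was lower in control cells (log2 −0.56, but 0.10 with the groups scaled to the same median) and level in miR-143 cells (0.03).

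LMO2, the LIM-only bridge between TAL1 and GATA factors (chr11:33858576-33892289, minus strand), was at 7.91 FPKM with IgG and 96.4 with AGO in control cells, against 20.4 and 49.8 in miR-143 cells. Its AGO value was 12.2 times the IgG value with the control vector and 2.44 times with miR-143. The lower ratio came from both sides, since the AGO value was lower and the IgG value higher in miR-143 cells. In control_IgG its level was only 24.7 times the low edge of the group, the smallest such margin of any factor in any group.

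NFE2, the large subunit of the NF-E2 factor that activates globin genes (chr12:54292111-54301121, minus strand), was the 1 factor that was at least 2-fold lower with the AGO2 antibody in both populations, though in miR-143 cells it passed 2-fold under none of the 3 scalings tried (log2 −0.71 to −0.96). It stood at 38.7 FPKM with IgG and 9.00 with AGO in control cells, against 45.9 and 20.5 in miR-143 cells, and the IgG value was 4.30 and 2.24 times the AGO value. Its order among the 10 went from 4th in both mock precipitates to 9th in control_AGO and 7th in miR143_AGO. GFI1B, the repressor (chr9:132944000-132991687, plus strand), was at 9.64, 10.6, 10.8 and 23.0 FPKM in control_IgG, control_AGO, miR143_IgG and miR143_AGO. Its first 3 values lay close together and miR143_AGO stood above them.

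MYB, the factor of proliferating progenitors (chr6:135181315-135219173, plus strand), was at 15.6 FPKM with IgG and 14.7 with AGO in control cells, against 17.6 and 6.88 in miR-143 cells. Here miR143_AGO was the low group and the others were close to each other. RUNX1, the core binding factor of stem cells and megakaryocytes (chr21:34787801-36004667, minus strand), was at 5.03 FPKM with IgG and 7.51 with AGO in control cells, against 46.7 and 5.66 in miR-143 cells. Its value in miR143_IgG was 9.29 times that in control_IgG, and it was the last of the 10 in the other 3 groups and the third in miR143_IgG. MYB has 42 annotated transcripts and RUNX1 has 17, which the tables join into 1 value per gene, and how isoforms entered these values was not tested.

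**Figure D2:**
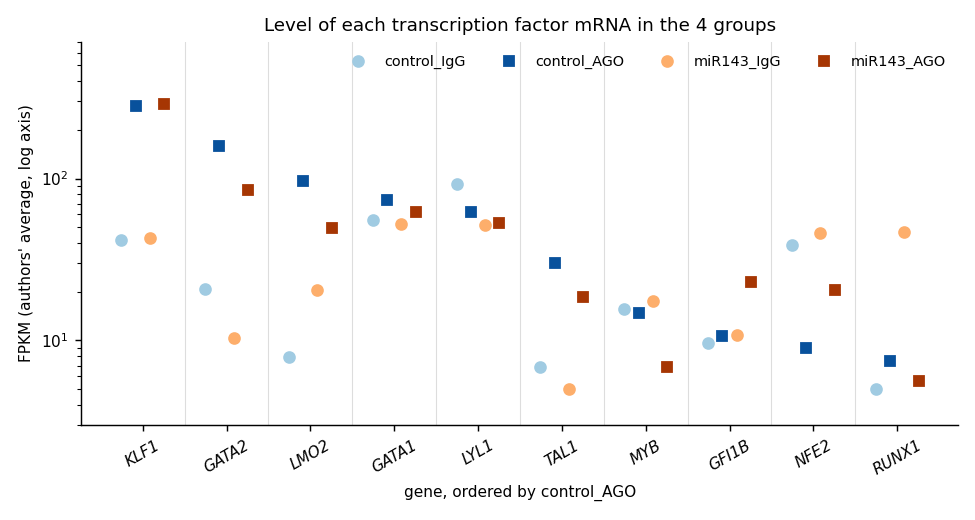
Level of each of the 10 mRNAs in the 4 groups (FPKM, log axis), 1 average of the authors per point, circles for IgG and squares for AGO. KLF1, GATA2, LMO2 and TAL1, and by a narrow gap GATA1, have both squares above both circles, NFE2 has both below, and RUNX1 has a single high point of 46.7 in miR143_IgG.

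To ask which of these mRNAs were recovered with AGO2, each AGO precipitate was set against the mock precipitate of the same cells. In control cells GATA2 (log2 2.87), KLF1 (2.71), LMO2 (3.45) and TAL1 (1.99) were at least 2-fold higher with the AGO2 antibody. That is 4 of 10 factors, while 34.5% of the 9919 rows compared were 2-fold higher, so that the share of the factors was near the background. NFE2 (−1.99) was at least 2-fold lower, as were 36.2% of rows. LMO2 alone was at least 10-fold higher, against 4.38% of rows, and none was 10-fold lower, against 4.98%.

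In miR-143 cells GATA2 (2.92), KLF1 (2.73), TAL1 (1.71), LMO2 (1.25) and GFI1B (1.02) were at least 2-fold higher with the AGO2 antibody, 5 of 10 against 26.6% of 10643 rows. RUNX1 (−2.84), MYB (−1.24) and NFE2 (−1.12) were at least 2-fold lower, 3 of 10 against 33.5% of rows. No factor passed 10-fold in either direction, against 1.60% of rows higher and 3.67% lower. The call of NFE2 was lost under each scaling, as given above, that of MYB under the upper quartile and the sum of coding rows, and GFI1B lay just past the threshold.

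The comparisons of the control cells and of the miR-143 cells share no group. GATA2, TAL1, KLF1 and LMO2 were at least 2-fold higher in both, as were 15.0% of the 8648 rows that could be compared in both, and NFE2 was at least 2-fold lower in both, as were 16.4%. The 4 that were higher in both include the 3 factors most abundant in control_AGO (KLF1, GATA2 and LMO2). This overlap is in part built in, since control_AGO is the numerator of the ratio in control cells. In control_IgG, KLF1, GATA2 and LMO2 ranked 3rd, 5th and 8th among the factors. Whether abundance goes with a higher ratio was not tested. RUNX1 was the factor that differed most between the populations, with 0.50 for the control vector and −2.84 for miR-143.

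The background depends on which rows are counted. Over rows averaging 5 FPKM or more, a limit that all 10 factors pass and that was chosen after their values had been seen, 24.1% of rows were 2-fold higher and 44.3% lower in control cells, and 21.5% and 39.4% in miR-143 cells. The median of the 10 factors was 0.45 with the control vector and 0.64 with miR-143, beside −0.19 and −0.22 over all rows. With the groups scaled to the same median the split of all rows in control cells was 42.8% higher and 26.8% lower, and with the same sum of coding rows that in miR-143 cells was 33.4% and 26.6%.

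**Figure D3:**
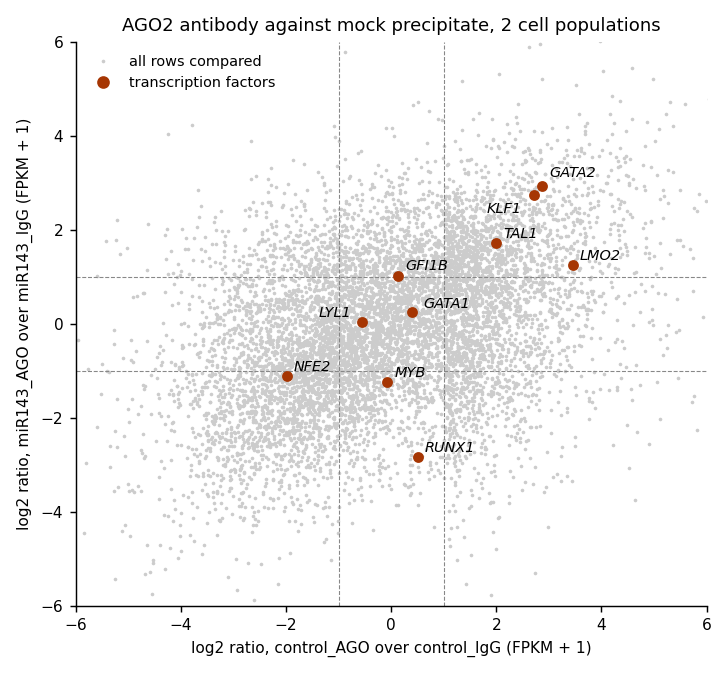
Log2 ratio of AGO over IgG for the control vector (x axis) and the miR-143 vector (y axis), for 8648 rows (grey) and the 10 factors (brown), with dashed lines at 2-fold and 40 rows beyond the axes. GATA2, KLF1, TAL1 and LMO2 lie in the upper right field, NFE2 in the lower left, and RUNX1 at 0.50 and −2.84.

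Base composition moved with these ratios across genes. Over 6950 coding rows Spearman's rho between the GC content of the longest coding transcript and the ratio of AGO over IgG was 0.19 in control cells, and over 7363 rows it was 0.26 in miR-143 cells. Genes share the libraries and are not replicates. MYB (43.9% GC) and RUNX1 (47.1%) were the factors below the median of 50.1%, and in miR-143 cells both were 2-fold lower with the AGO2 antibody (MYB not with the groups scaled to the same upper quartile, −0.88, or sum of coding rows, −0.85). In control cells neither was, at −0.08 for MYB and 0.50 for RUNX1. Over the 10 factors rho was 0.08 for the control vector and 0.48 for the miR-143 vector. The other 8 ranged from 53.2% to 69.2%, NFE2 among them. The part of GC content in the ratios of single factors was not tested.

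To ask what miR-143 changed among the mRNAs held by AGO2, the AGO precipitates of both populations were compared. NFE2 (log2 1.10, from 9.00 to 20.5 FPKM) and GFI1B (1.04, from 10.6 to 23.0 FPKM) were at least 2-fold higher in miR143_AGO, 2 of 10 against 17.7% of 9798 rows. No factor was 2-fold lower, against 14.1% of rows, though MYB (−0.99), LMO2 (−0.94) and GATA2 (−0.88) lay just inside the threshold and TAL1 followed at −0.67. MYB passed it with smaller pseudocounts (−1.08 and −1.09) and as a plain ratio (−1.10). RUNX1 (−0.35), GATA1 and LYL1 (both −0.23) and KLF1 (0.04) moved less. No factor was 10-fold higher or lower, against 0.286% and 0.745% of rows.

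The median of the list was −0.29, beside 0.17 over all rows and 0.06 over rows averaging 5 FPKM or more. Of the 10 factors 7 were below 0, and the share of all rows below 0 was not counted. When the groups were scaled to the same median, 15.2% of rows were 2-fold higher and 17.4% lower. NFE2 (0.92) and GFI1B (0.85) then no longer passed 2-fold, while MYB (−1.20), LMO2 (−1.15) and GATA2 (−1.09) did. None of these factors has a match for the miR-143-3p seed, as given above.

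The mock precipitates of the populations also differed. LMO2 (1.27) and RUNX1 (2.98) were at least 2-fold higher in miR143_IgG than in control_IgG, 2 of 10 against 36.2% of 10172 rows, and none was 2-fold lower, against 26.8%. GATA2 (−0.93) and LYL1 (−0.81) were the lowest. For KLF1 (0.03), GATA1 (−0.09), GFI1B (0.15), MYB (0.16) and NFE2 (0.24) the mock precipitates lay within 0.25 log2 units of each other. GATA2 was lower by a like amount in both kinds of precipitate.

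Dividing the AGO to IgG ratio of the miR-143 cells by that of the control cells gives the IgG-corrected difference. It was lower by at least 2-fold for RUNX1 (−3.34), LMO2 (−2.20) and MYB (−1.16), 3 of 10 against 33.5% of 11914 rows, and 2-fold higher for none, against 29.0%. GATA2 (0.05) and KLF1 (0.01) were level, and GATA1 (−0.14) and TAL1 (−0.28) were close to 0. NFE2 (0.87), GFI1B (0.89) and LYL1 (0.59) lay above 0 without passing 2-fold. For RUNX1 the difference lay in the mock precipitate, with −0.35 between the AGO groups and 2.98 between the IgG groups, whereas for MYB it lay in the AGO precipitate, with −0.99 and 0.16.

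**Figure D4:**
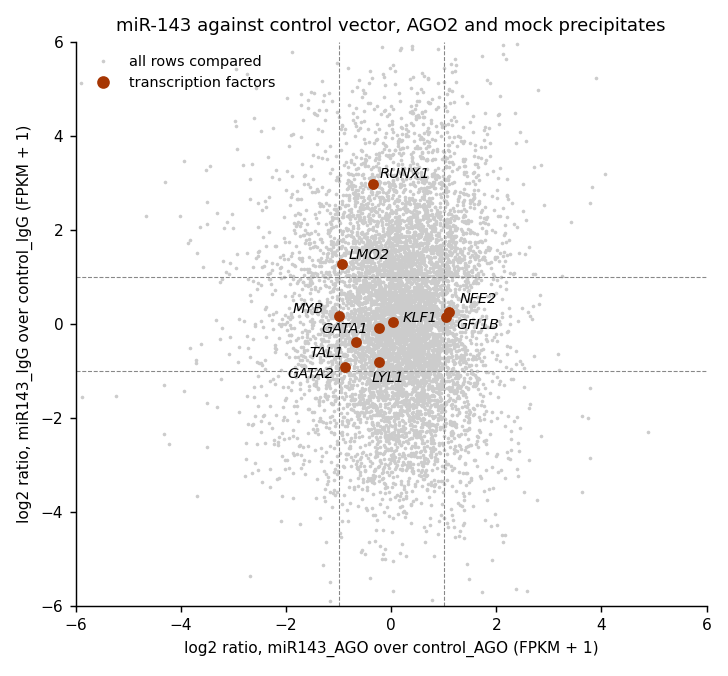
Log2 ratio of miR-143 over control vector in the AGO precipitates (x axis) and in the IgG precipitates (y axis) for 8056 rows (grey) and the 10 factors (brown), with dashed lines at 2-fold and 25 rows beyond the axes. NFE2 and GFI1B lie to the right of the 2-fold line, LMO2 and RUNX1 above it, and GATA2 low on both axes.

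The cofactors and dimer partners of the 10 were followed as a list of 23 genes. In control cells 10 of the 22 compared were at least 2-fold higher with the AGO2 antibody and 5 lower, and in miR-143 cells 5 and 4 were, with medians of 0.82 and 0.09. Of all rows 34.5% were higher and 36.2% lower in the former, and 26.6% and 33.5% in the latter. TCF3, which encodes the E proteins that pair with TAL1 and LYL1, was the highest at 33.5 FPKM with IgG and 201 with AGO in control cells, against 91.7 and 166 in miR-143 cells. ZFPM1, the GATA1 partner also called FOG1, was at 0.914 FPKM with IgG and 18.2 with AGO in control cells, against 1.95 and 9.67 in miR-143 cells, and was at least 2-fold higher with AGO in both populations, as TCF4 was. ZFPM1 and TCF4 were singled out once their values were known. LDB1, which joins LMO2 complexes to each other, varied only from 27.4 to 41.1 FPKM, and MTA2, a subunit of the NuRD repressor complex, from 11.0 to 32.4.

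Between the AGO precipitates 4 of 22 cofactors were 2-fold higher with miR-143 (TCF12, TCF4, LMO4 and SSBP2) and 2 lower (CBFA2T3 and HDAC2), against 17.7% and 14.1% of rows. Between the mock precipitates 6 of 20 were higher and 2 lower, against 36.2% and 26.8% of rows. The IgG-corrected difference was 2-fold higher for 5 and lower for 10 of 22, against 29.0% and 33.5% of rows, with a median of −0.90 beside −0.09 over all rows. HDAC1, a histone deacetylase, had a pattern like that of RUNX1, at 2.33, 8.91, 47.4 and 6.35 FPKM in control_IgG, control_AGO, miR143_IgG and miR143_AGO. It too was singled out once its values were known.

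Of 23 other blood transcription factors 16 could be compared with the AGO2 antibody. In control cells 5 were 2-fold higher and 4 lower, in miR-143 cells 6 and 6, and between the AGO precipitates 1 and 3, where the shares of all rows were 34.5% and 36.2%, 26.6% and 33.5%, and 17.7% and 14.1%. MYC was the most abundant at 159, 147, 98.1 and 121 FPKM in control_IgG, control_AGO, miR143_IgG and miR143_AGO, and STAT5A stayed between 64.2 and 75.5. NFE2L2, a relative of NFE2, shares its row with another gene and is uncertain. FLI1, ERG and BCL11A were listed at 0 in every group.

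Genes of the red cell membrane and known erythroid targets lay on both sides. In control cells 10 of 23 were 2-fold higher with the AGO2 antibody and 8 lower, in miR-143 cells 7 and 5, and between the AGO precipitates 2 were higher and 1 lower with miR-143. The shares of all rows were those given for the list before, and in control cells 10 and 8 of 23 lay near them. GYPC, the gene of glycophorin C, stood at 207, 554, 151 and 436 FPKM in control_IgG, control_AGO, miR143_IgG and miR143_AGO, and GYPB at 120, 387, 186 and 572. BLVRB, a reductase abundant in red cells, stood at 35.5, 296, 99.3 and 383. These 3 were higher with the AGO2 antibody in both populations, as KLF1 and GATA2 were. RHAG, XK, TMOD1 and EPOR (in a row joined with RGL3) were 2-fold lower in both, as NFE2 was, and were singled out once their values were known. XK lay just past the threshold in miR-143 cells (−1.10).

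**Figure D5:**
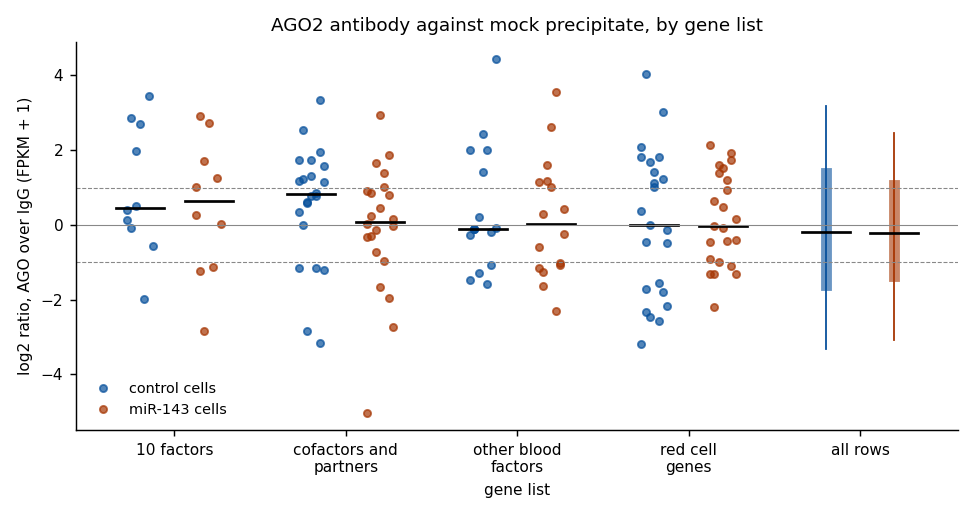
Log2 ratio of AGO over IgG for single genes of 4 lists (points, blue for control cells and brown for miR-143 cells), with the list median as a black line, and for all rows as the median, the 25th to 75th percentile (bar) and the 5th to 95th (thin line). Each list reaches from below −1 to above 1 in both populations.

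Genes chosen as markers of K562 were looked up, beside GATA1 and KLF1 given above. Values are in the order IgG and AGO of control cells, then IgG and AGO of miR-143 cells. The joined row of the embryonic and fetal globin genes HBE1, HBG1 and HBG2 stood at 237, 321, 229 and 523 FPKM and BCR at 23.9, 36.8, 17.5 and 41.1 FPKM. Both were higher with the AGO2 antibody in both populations. The joined row of HBZ stood at 88.2, 32.0, 100 and 48.0 FPKM and TFRC at 45.8, 32.9, 70.05 and 27.5. These were lower with the AGO2 antibody in both populations. Of the markers of other cells, 8 of 12 megakaryocyte genes, 7 of 16 granulocyte and monocyte genes (MPO, ELANE and CD14 among them) and 8 of 12 lymphocyte genes were listed at 0 in all groups. So were 46293 of all 61782 rows, so that these markers were at 0 no more often than rows at large. Other markers were above 0: ITGA2B, the platelet integrin gene, was listed at 0 in both mock precipitates and at 8.77 and 10.5 FPKM in control_AGO and miR143_AGO, and PRTN3, a granule protease gene, at 0 in both mocks and at 7.86 and 13.9. ITGAM, which encodes CD11b, ranged from 4.66 to 13.0 FPKM and was higher with the AGO2 antibody in both populations. GP6 shares its row with other genes (6.18 to 13.6 FPKM), ITGB3, CD3E and CD3G were listed at 0 throughout, and CD3D was above 0 only in miR143_IgG, at 4.95 FPKM. The summed levels of the granulocyte and monocyte genes were 44.9, 56.8, 20.7 and 41.3 FPKM, and of the lymphocyte genes 0, 0, 5.25 and 0.714. Among the stem cell surface genes CD34 was listed at 0 in every group, while KIT stood at 15.0, 31.2, 10.2 and 39.1 FPKM and CD33 at 67.7, 31.8, 31.3 and 25.4. SPI1, which encodes the myeloid factor PU.1 that opposes GATA1, was at 19.1, 30.7, 12.0 and 10.3 FPKM.

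The start sites of the factors were searched for the GATA motif, since GATA1 and GATA2 are themselves 2 of the 10. RefSeq promoter windows (GRCh38.p14), from 250 bases before to 50 after the start, were found for 8 of the 10, with LMO2 and NFE2 not matched. At least 1 of the motifs AGATAA and AGATAG and TGATAA and TGATAG, on either strand, was in 5 of 11 windows, of GFI1B, KLF1, LYL1 and TAL1, while 25.0% of all 35116 windows had 1. The windows of GATA1, GATA2, MYB and RUNX1 had none. Stretches around the motif (in capitals, here on the opposite strand) are shown for the 2 factors of this set that were higher with the AGO2 antibody in both populations, at chr19:12887235-12887294 for KLF1 and chr1:47232338-47232397 for TAL1, both on the minus strand.
KLF1: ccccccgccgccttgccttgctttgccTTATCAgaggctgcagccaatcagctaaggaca
TAL1: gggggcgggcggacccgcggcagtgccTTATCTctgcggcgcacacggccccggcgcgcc

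The motif starts 66 bases before the RefSeq start of the window in KLF1, which holds a further one 13 bases before it, and 35 before it in TAL1. The RefSeq start of this TAL1 window is not the end of the gene coordinates given above, and another TAL1 window had no motif. LYL1 holds 2 and did not pass 2-fold with the AGO2 antibody in either population. Binding of GATA factors was not measured here.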

How the data were processed

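RNA was sequenced from 12 immunoprecipitates. Per the labels and methods, reads were processed by the authors with TopHat and Cufflinks on hg38, versions not given in the sources used here. The labels name removal of ribosomal RNA, the methods a TruSeq RNA kit. The authors deposited 1 table per group with 1 average FPKM per gene row (61782 rows, 2140 of them joined genes). Replicate values were not analysed here, so that the tests foreseen for replicates were not run. Depth in reads is unknown. Relative depth was taken from the 10th lowest product of FPKM and transcript length over genes of 1 transcript.

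Groups were taken from the sample titles. Ratios were log2 of (FPKM + 1), over rows of at least 1 FPKM in 1 of the groups compared, and a row was called when at least 2-fold or 10-fold different. Annotation was GENCODE 29 (GRCh38). Python 3.11.15, pandas 2.3.3 and numpy 2.4.6 were used. The factors, the gene lists and the tests were chosen with earlier results of these data known. Of each other list, the 3 genes highest in control_AGO were named, with any past 10-fold between the AGO groups or in both AGO over IgG comparisons (none was), and others where stated. The result of 1 marker gene is not reported here.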

Additional observations from a re-analysis of the deposited data

Results flagged for a closer look

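For 3 of the 10 factors the difference between miR-143 and control cells went in opposite directions in the AGO and in the IgG precipitate. How many of all rows did so was not counted, so that these 3 are not set apart from other rows. Between the IgG groups the standard deviation of the log2 ratio over all rows was 1.99. In each case there is 1 average per group, and the difference was not tested. RUNX1 was lower in the AGO precipitate (−0.35) and higher in the IgG precipitate (2.98), which gives −3.34. Equally, AGO over IgG was above 0 in control cells (0.50) and below 0 in miR-143 cells (−2.84). LMO2 was lower in AGO (−0.94) and higher in IgG (1.27), which gives −2.20. MYB was lower in AGO (−0.99) and slightly higher in IgG (0.16), which gives −1.16.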

How the results depend on the processing

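No paired analysis was possible because only 1 average per group was analysed, and replicates were not left out for the same reason. Of 50 values of the 10 factors, no called value changed sign under 9 alternatives, and all stayed within 0.58 log2 units of the value given except 9 under scaling to the same median. That scaling moved the median of the factors for AGO over IgG in control cells from 0.45 to 1.06, since it shifts all rows by 0.67 there, by 0.17 in miR-143 cells, by −0.21 between the AGO groups, by 0.28 between the IgG groups and by −0.49 in the IgG-corrected difference. Scaling to the same sum of coding rows shifted AGO over IgG by 0.44 and 0.43 and the other comparisons by at most 0.03. This scaling and the plain ratio were chosen after seeing the data. Calls at 2-fold were lost for 3 values and gained for 5 under median scaling, and lost for 2 under the upper quartile and under the sum of coding rows. MYB between the AGO groups was gained at pseudocounts of 0.1 and 0.01, and the plain ratio gained it and GATA2 between the mocks. Depth limits LMO2, GFI1B and TAL1 in control_IgG most, and taking the 100th product moved the relative depth of miR143_IgG from 1.64 to 2.57.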

Other observations

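Between the mock precipitates 7.84% of rows were as high as RUNX1 or higher, and in the IgG-corrected difference 5.95% were as low or lower. A value high in miR143_IgG is thus not particular to RUNX1. The RUNX1 pattern, high in miR143_IgG alone, was seen in 3 chromatin genes of the cofactor list, all chosen after their values were seen. HDAC1 stood at 47.4 FPKM there and at 2.33 to 8.91 in the other groups. CHD4, a remodeller of the NuRD complex, stood at 33.6 FPKM there and at 3.30 to 10.0 elsewhere. HDAC2 stood at 31.4 FPKM there, at 9.33 in control_IgG, at 3.66 in control_AGO and was listed at 0 in miR143_AGO. Not all partners of RUNX1 had it: CBFB, the subunit that pairs with RUNX1, stood at 4.97, 5.01, 4.95 and 3.84 FPKM in control_IgG, control_AGO, miR143_IgG and miR143_AGO.

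The widely expressed E protein gene TCF12 and its relative TCF4 were highest in miR143_AGO. TCF12 stood at 9.43, 15.0, 11.1 and 37.6 FPKM and TCF4 at 0.941, 3.80, 0.532 and 10.7 in the same order, whereas TCF3 was highest in control_AGO. ZBTB7A, a repressor of fetal globin genes, stood at 3.34, 16.4, 0.220 and 13.3 FPKM, and KLF13 at 0.600, 7.70, 0.0496 and 5.45, both higher with the AGO2 antibody in both populations. These genes, too, were chosen after their values were seen.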
